A study of Mus musculus with 14 samples.

Results

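The interleukin genes of the mouse, those that encode the secreted interleukins and those that encode their receptors, were examined for H3K4me1 sites in NG3 cells. Members were the protein-coding genes of GENCODE M21 whose symbol is Il followed by a number, with a letter or a family number after it for ligands and with r and its suffix letters for receptors. The rule gave 79 of the 21938 protein-coding genes on the chromosomes of mm10, of which 39 were ligand genes and 40 receptor genes. Il1rn, a secreted receptor antagonist, was counted with the ligands. Il6st, Il18bp and Il4i1 do not have such a symbol and were not members.

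Interleukins are small secreted proteins through which immune, epithelial and connective tissue cells signal to each other. Most are made by particular cell types after stimulation, while the receptors on the responding cells pass the signal on through Janus kinases and STAT proteins or, in the IL-1 and IL-17 families, through adaptor proteins to NF-kB. Fibroblasts are a known source of Il6, Il11 and Il33 and carry receptors for IL-1, IL-4, IL-6 and IL-17, whereas Il2, Il4 and Il17a are products of lymphocytes. H3K4me1, histone H3 with a single methyl group on lysine 4, is found at active and primed enhancers and on the flanks of active promoters. ASH2L is a core subunit of the KMT2 complexes that place methyl groups on this lysine.

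NG3 is 1 clone of immortalized mouse embryo fibroblasts (iMEF) with floxed Ash2l alleles and a Cre-ER recombinase, obtained by limiting dilution. In these cells exon 4 of both endogenous alleles was deleted after activation of Cre-ER with 4-hydroxytamoxifen, and human ASH2L fused to an FKBP domain and HA tags (FKBP-HA2-ASH2L) was supplied from a lentivirus. All libraries share this background, the control cells included. The control cells received no dTAG-13, the PROTAC that directs FKBP fusion proteins to the proteasome, and the other cells received it for 30 min, 2 h, 4 h, 8 h or 16 h, which gave 6 conditions with 2 H3K4me1 libraries each and 14 libraries with the 2 inputs. A replicate is named by its number alone, and nothing in the labels says how replicate cultures were separated.

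The deposited table is a single set of 160144 H3K4me1 sites pooled over all conditions, with a median width of 603 bp, and holds positions alone. A site may therefore stem from the control, from any time of dTAG-13 treatment or from all of them, and no height, depth or replicate stands behind it. The methods name a minimum of raw reads aimed at per ChIP sample, but the depth that each library reached is unknown here. A promoter without a site therefore cannot be told apart from a promoter with too few reads. The 95% Wilson intervals given with shares cover the counting of genes alone. Intervals treat genes as independent, although neighbours within a locus can share a site, and no test between groups of genes was made.

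The sites at genes that mark cell types were read first. A site lay within 1 kb of the most upstream transcription start site (TSS) in 9 of 10 fibroblast genes, Col3a1 being without one, and in 0 of 7 lymphoid genes, Ptprc, Cd3e and Cd4 among them. It also lay there in 3 of 5 myeloid genes, Csf1r, Cd14 and Lyz2, and in 4 of 5 epithelial genes, Epcam, Cdh1, Krt14 and Krt8. Over all protein-coding genes the share was 63.9%, and over those without a CpG island within 1 kb of the TSS it was 29.9%. No lymphoid gene on the list had such an island, whereas the fibroblast genes Fn1, Thy1, Pdgfra, Vim and Twist1 did. The part of islands in this contrast was not tested. The sites were thus present at the starts of most fibroblast genes and of no lymphocyte gene on the list, and epithelial and myeloid genes had them too. A site at a promoter is no measure of expression.

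The sequences before 7 TSSs of 6 members are shown because the results below turn on where the sites lie relative to these starts. They are the bases before the TSS as RefSeq places it on GRCm38.p6, the assembly of mm10, written in the direction of transcription and ending at the last base before any annotated exon. Capitals mark matches to 5 short words, TGANTCA for AP-1, GGANTTTCC for NF-kB and TTGCNNAA for C/EBP, each sought on both strands, TTCNNNGAA for STAT, which reads the same on both strands, and TATAAA for the TATA box on the sense strand. No matches overlap in the sequences shown. The Il6 window is chr5:30012864-30013113 on the plus strand, the Il11 window chr7:4778142-4778391 and the Il1a window chr2:129309973-129310222, both on the minus strand, and the Il33 window chr19:29945540-29945789 on the plus strand. The Il1rl1 windows are chr1:40429320-40429569 and chr1:40439379-40439626 on the plus strand, and the Il2 window is chr3:37125960-37126204 on the minus strand.
Il6: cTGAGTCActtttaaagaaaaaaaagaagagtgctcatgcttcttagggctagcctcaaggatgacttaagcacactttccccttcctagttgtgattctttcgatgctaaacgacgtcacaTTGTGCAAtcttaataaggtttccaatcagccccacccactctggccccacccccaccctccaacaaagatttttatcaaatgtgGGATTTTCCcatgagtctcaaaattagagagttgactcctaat
Il11, later start: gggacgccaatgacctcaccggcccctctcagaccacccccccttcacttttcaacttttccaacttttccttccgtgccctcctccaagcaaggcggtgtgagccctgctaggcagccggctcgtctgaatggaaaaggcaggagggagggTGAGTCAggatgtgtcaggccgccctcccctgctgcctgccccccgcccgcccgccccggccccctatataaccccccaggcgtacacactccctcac
Il1a: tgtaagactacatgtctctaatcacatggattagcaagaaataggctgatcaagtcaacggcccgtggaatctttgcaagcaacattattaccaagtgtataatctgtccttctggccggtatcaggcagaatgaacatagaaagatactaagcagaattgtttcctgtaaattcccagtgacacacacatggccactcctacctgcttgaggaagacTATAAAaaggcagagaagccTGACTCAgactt
Il33, later start: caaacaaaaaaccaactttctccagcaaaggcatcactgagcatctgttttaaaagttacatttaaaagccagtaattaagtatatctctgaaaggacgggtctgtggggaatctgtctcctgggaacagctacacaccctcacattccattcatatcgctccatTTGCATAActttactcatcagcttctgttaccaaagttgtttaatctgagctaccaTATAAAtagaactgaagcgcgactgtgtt
Il1rl1, first start: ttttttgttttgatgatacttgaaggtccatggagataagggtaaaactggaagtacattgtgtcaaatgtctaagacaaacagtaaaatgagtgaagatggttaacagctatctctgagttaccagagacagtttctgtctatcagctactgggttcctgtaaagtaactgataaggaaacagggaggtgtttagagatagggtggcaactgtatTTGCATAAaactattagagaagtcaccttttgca
Il1rl1, later start: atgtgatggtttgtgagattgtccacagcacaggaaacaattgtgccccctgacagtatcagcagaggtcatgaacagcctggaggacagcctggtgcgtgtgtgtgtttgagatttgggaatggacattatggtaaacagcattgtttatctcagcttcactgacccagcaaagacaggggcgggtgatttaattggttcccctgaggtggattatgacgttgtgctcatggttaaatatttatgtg
Il2: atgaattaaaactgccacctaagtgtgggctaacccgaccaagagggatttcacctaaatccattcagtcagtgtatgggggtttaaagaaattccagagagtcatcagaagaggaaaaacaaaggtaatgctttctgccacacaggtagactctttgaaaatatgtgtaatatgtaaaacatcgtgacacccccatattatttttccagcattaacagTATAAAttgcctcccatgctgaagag

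In the Il6 window the AP-1 word stood at -249 to -243, the C/EBP word on the antisense strand at -128 to -121 and the NF-kB word at -43 to -35, with the TSS at 0. The site over the Il6 TSS began at -133, so the C/EBP and NF-kB words lay under it and the AP-1 word lay in the gap between both promoter sites of this gene. The Il11 word for AP-1 stood at -98 to -92 of the later start, and the Il1a window held TATAAA at -32 to -27 and an AP-1 word at -12 to -6. All 250 bases shown for Il11 and for Il1a lay under sites. The Il33 window of the later start held TATAAA at -29 to -24 and 75 bases under a site. In Il1rl1, the receptor chain for IL-33, the first window had no base under a site, and every base shown for the later start was covered. The Il2 window, with TATAAA at -31 to -26 of its RefSeq start, had no base under a site, and the nearest site, 873 bp wide, ended at -1955.

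Sites within 1 kb of the TSS were less frequent at interleukin genes than at protein-coding genes in general. They were present at 37 of 79 members (46.8%, interval 36.2 to 57.7%), against 63.9% of all protein-coding genes. The TSS base itself was covered in 25 of 79 members (31.6%, 22.4 to 42.5%), against a background of 39.5%. In the 12 other members with a promoter site, the sites lay downstream of the start in 7 and upstream in 4, and in Il1rapl2, a synaptic member of the IL-1 receptor family, sites stood on both sides. Gene bodies carried a site in 54 of 79 members (68.4%, 57.5 to 77.6%), against 72.8% of all protein-coding genes.

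The counts were then read by CpG island within 1 kb of the TSS. An island was found at 15 of 79 members (19.0%, 11.9 to 29.0%) and at 53.9% of all protein-coding genes. Among genes with an island, 14 of 15 members had a promoter site, beside 93.0% of all such genes. Without an island the count was 23 of 64 members (35.9%, 25.3 to 48.2%), beside 29.9% of all such genes. In either class of promoter the share of all genes lay inside the interval of the members. Il10ra, the ligand-binding chain of the IL-10 receptor, was the exception, with an island of 280 bp near its start, no site in promoter or gene body, and the nearest site 31448 bp upstream.

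Ligand and receptor promoters differed less than their gene bodies did. A promoter site was present at 16 of 39 ligands (41.0%, 27.1 to 56.6%) and at 21 of 40 receptors (52.5%, 37.5 to 67.1%), and the intervals overlap widely. Islands were present at 2 ligands, Il7 and Il17d, and at 13 receptors. Without an island, a promoter site was present at 14 of 37 ligands (37.8%, 24.1 to 53.9%) and at 9 of 27 receptors (33.3%, 18.6 to 52.2%). Of the genes with a promoter site, 12 of 21 receptors and 2 of 16 ligands had an island. With a window of 2 kb the order turned, with 59.0% of ligands and 57.5% of receptors. In gene bodies, a site was present in 21 of 39 ligands (53.8%, 38.6 to 68.4%) and in 33 of 40 receptors (82.5%, 68.1 to 91.3%). Receptors with a site in the gene body and none at the promoter numbered 14 of 40, such ligands 5 of 39, and the share among all protein-coding genes was 9.78%.

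Gene length moved with the difference between gene bodies. The median length was 7359 bp for ligands, 32722 bp for receptors and 17425 bp for all protein-coding genes. Among genes under 10 kb, 9 of 25 ligands had a site in the body (36.0%, 20.2 to 55.5%), against 49.5% of all genes of that length and 25.4% of those without an island. Of the receptors under 10 kb, Il2rg had a body site and Il3ra and Il11ra2 had none. Between 10 and 50 kb the counts were 9 of 11 ligands and 20 of 25 receptors, against 81.3% of all such genes. At 50 kb or more all 15 members had a site. Most other genes of such length had one too, so this count does not set the members apart. In the longest deciles of all protein-coding genes, with median lengths of 77498 and 186028 bp, the lower quartile of the body covered was 2.66% and 1.92%. In the middle class the shares of ligands and receptors were thus 81.8% and 80.0%. The median share of the gene body covered was 1.87% for ligands, 5.48% for receptors and 6.47% for all protein-coding genes.

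Sites in the neighbourhood were common. Only 1 of 79 members, Il11ra2, had no site in its promoter, its gene body or the 50 kb to either side, beside 13.2% of all protein-coding genes and 26.3% of those without an island. The nearest site to Il11ra2, a further gene for an IL-11 receptor chain, was 255428 bp away. Il11ra2 resembles Il11ra1 in sequence, and how reads that match both genes were placed is not given in the sources used here. Of the 271 sites at members, 212 had their centre in an intron, 37 in an exon and 20 upstream of the gene, and 76 lay within 1 kb of any annotated start of their own gene.

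**Figure D1:**
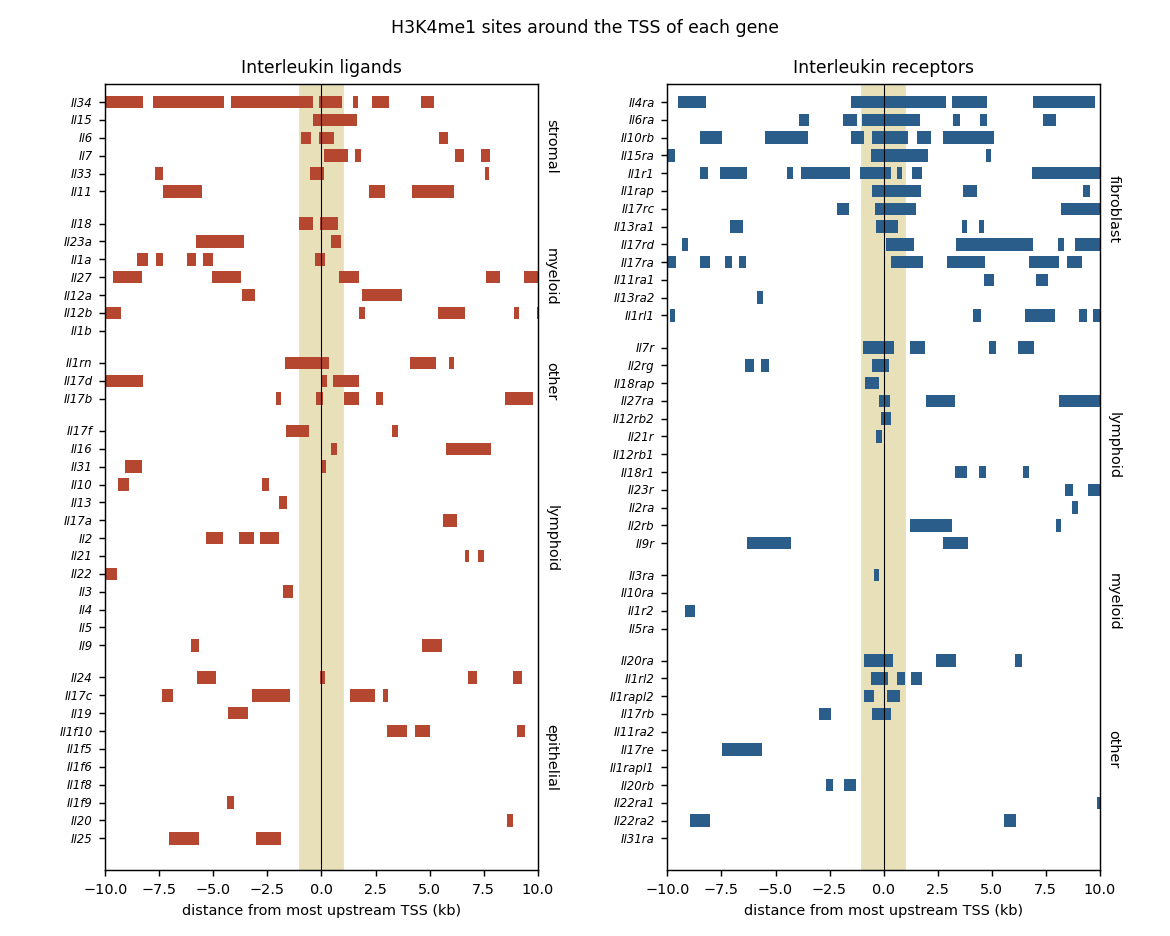
H3K4me1 sites (bars) in the 10 kb to either side of the most upstream TSS of 39 ligand genes (left) and 40 receptor genes (right), 1 gene per row, with genes grouped by the cells known for them and the 1 kb window shaded. Bars reach the window in 5 of 6 stromal ligands and in 10 of 13 fibroblast receptors, and in 3 of 13 lymphoid and 1 of 10 epithelial ligands.

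Ligands were grouped by a kind of cell known to make them, although several are made by other kinds too. The classes were chosen with earlier results of these data known, and other assignments, of Il15 and Il34 for example, were not tried. Among the 6 stromal ligands, a promoter site was present at Il6, Il7, Il15, Il33 and Il34 (5 of 6, 83.3%, 43.6 to 97.0%), and every gene body carried a site. Among the 13 lymphoid ligands, a promoter site was present at Il16, Il17f and Il31 (23.1%, 8.18 to 50.3%), and a gene body site at these and at Il21. The intervals of the stromal and the lymphoid ligands overlap between 43.6% and 50.3%. No lymphoid ligand had an island, and among all protein-coding genes without an island, 29.9% had a promoter site, a share inside the lymphoid interval. Of the stromal ligands Il7 alone had an island, and 4 of the 5 others had a promoter site (80.0%, 37.6 to 96.4%). The stromal genes were also longer, with a median of 39686 bp beside 5130 bp for the lymphoid ligands. Of the 10 lymphoid ligands under 10 kb, 2 had a gene body site (interval 5.67 to 51.0%), beside 25.4% of all genes of that length without an island. In the 50 kb to either side the order was the other way round, with a median of 8.49% of the bases covered around lymphoid ligands, 4.00% around stromal ligands and 7.40% around all protein-coding genes. A promoter site was present at 4 of the 7 myeloid ligands, Il18, Il1a, Il23a and Il27, and at 1 of the 10 epithelial ligands, Il24. No gene of either class had an island. The other ligands, Il17b, Il17d and Il1rn, all had a promoter site.

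**Figure D2:**
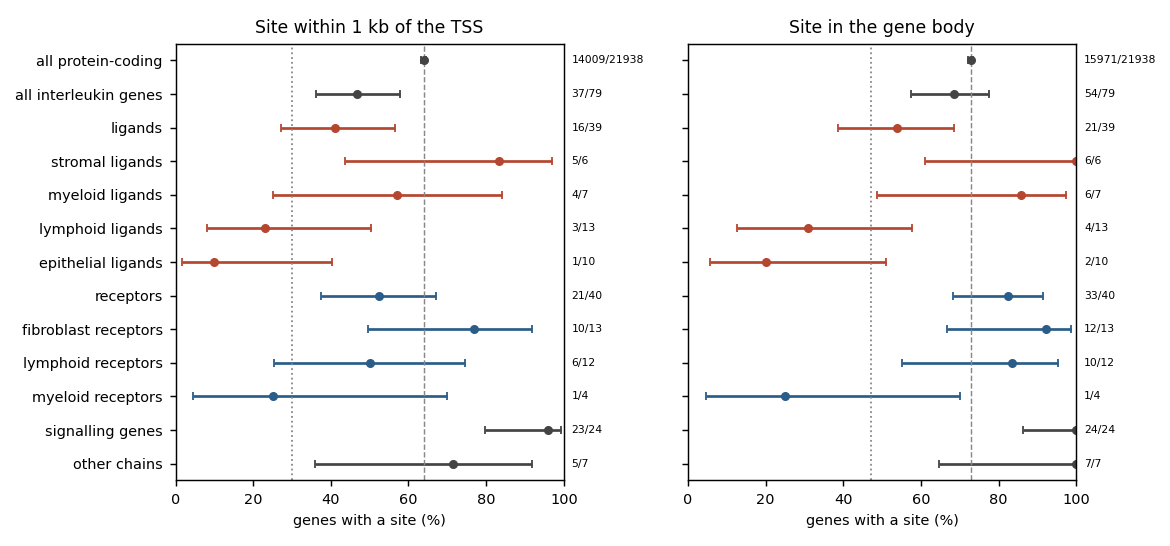
Share of genes (%) with an H3K4me1 site within 1 kb of the most upstream TSS (left) and in the gene body (right), with 95% Wilson intervals as bars and counts at the right edge of each panel. The dashed line marks all protein-coding genes, 63.9% on the left and 72.8% on the right, and the dotted line those without a CpG island, 29.9% and 47.1%. On the left the intervals of the stromal ligands and the fibroblast receptors include the dashed line, and those of the lymphoid and epithelial ligands, none of which has an island, include the dotted line. The lowest rows are listed signalling genes inside the cell and receptor chains that are not interleukin genes by symbol.

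Il6, the cytokine of the acute phase response, is a gene of 6868 bp. Its sites ran from -960 to -466 and from -133 to 563 relative to the TSS, 495 bp and 697 bp wide, and a site of 421 bp lay from 5453 to 5873. All 4 annotated Il6 starts lay under the site of 697 bp. With both promoter sites included, the 50 kb on either side of the gene held 3 sites over 1.03% of the bases, beside a median of 7.40% for all protein-coding genes.

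Il33, an alarmin kept in the nucleus of stromal and endothelial cells, had 6 sites. A site of 652 bp ran from -530 to 121 over the first start, and 503 bp from 20601 to 21103 covered the start at 20676, while the last annotated start, at 26702, had none within 1 kb. The widest site of Il33, 1041 bp, ran from 22972 to 24012 in an intron. Il7, the survival factor of lymphocyte precursors that stromal cells supply, had an island of 292 bp and a site of 1125 bp from 118 to 1242. Sites were found within 1 kb of all 5 annotated Il7 starts. No site lay in the 50 kb to either side of Il7. Il15, which supports natural killer cells, had a site of 2068 bp from -407 to 1660 and 8 sites over 71591 bp of gene.

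Il34, a ligand of the macrophage receptor encoded by Csf1r, was the most widely marked ligand. It carried 14 sites over 18334 bp of its body, or 28.6%, a share exceeded by 14.8% of all protein-coding genes. A site of 8252 bp ran from 10681 to 18932 inside the first part of the gene, and 1.31% of all protein-coding genes had a wider one. This was also the widest site of all members. A site of 3821 bp ran from -4206 to -386 before the first Il34 start, with a site of 1064 bp over the start itself. The 50 kb to either side held 32 sites, the most of all members.

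Il11, a cytokine of the IL-6 family made by fibroblasts, was the stromal ligand without a site at its most upstream start. Its nearest site began 2207 bp downstream, but the start 4718 bp downstream, which also belongs to a coding transcript, lay under a site of 1956 bp. Counted with any annotated start, 6 of 6 stromal ligands and 3 of 13 lymphoid ligands had a promoter site.

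**Figure D3:**
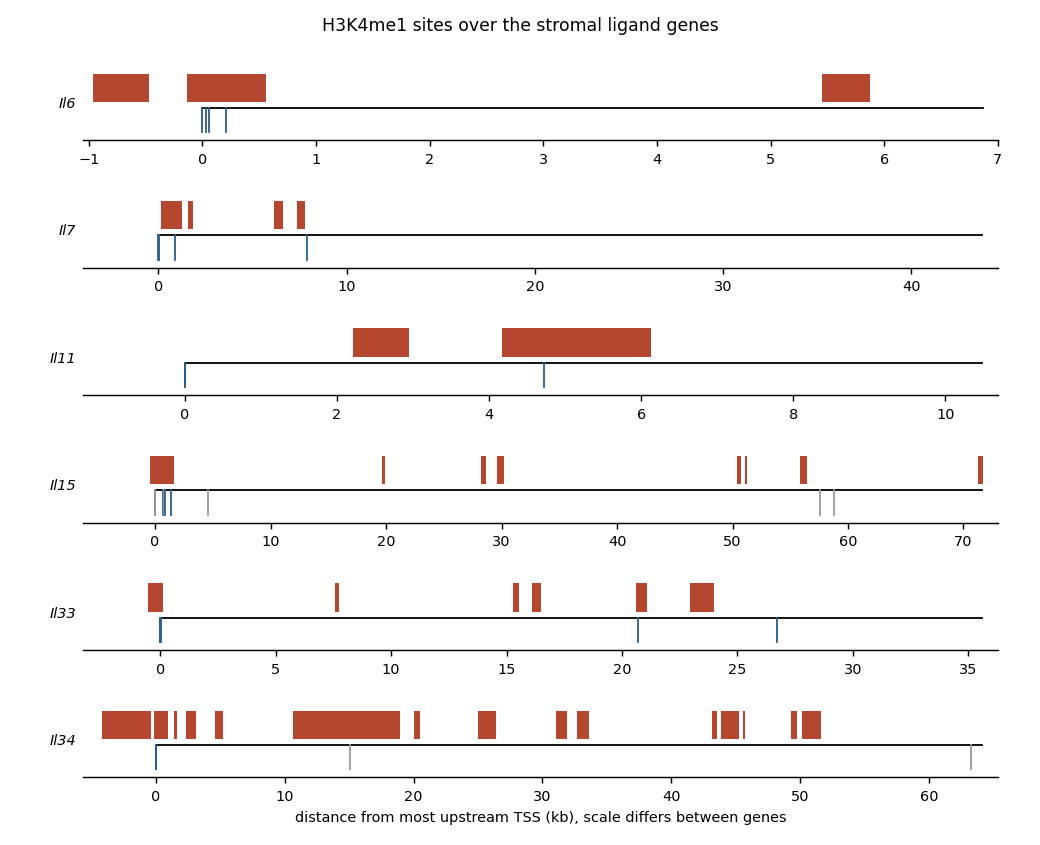
H3K4me1 sites (red bars) over the 6 stromal ligand genes (black lines), by distance from the most upstream TSS in kb, with annotated starts of coding transcripts as blue ticks and of other transcripts as grey ticks. The scale differs between genes; sites cover the most upstream start of Il6, Il15, Il33 and Il34 and begin 118 bp inside Il7, while in Il11 a site covers the start at 4718 bp and none covers the earlier ones. Later starts of Il15, Il33 and Il34 without a site over them are drawn too.

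Of the 14 gene body sites of the lymphoid ligands, 10 lay in Il16. Il16, a chemoattractant for CD4+ cells and the longest ligand gene with 102902 bp, had sites over 9.34% of its body, the widest 2085 bp, and near its first start a site of 279 bp from 438 bp downstream. Il17f had a site of 1067 bp that ended 571 bp before the start, and 252 bp in an intron. The site of 243 bp over the Il31 start also lay within 1 kb of a start of Lrrc43, so it cannot be assigned to either gene. Il21 had 2 sites, 307 bp and 224 bp wide, both over 6 kb downstream of its start. Il2, Il3, Il4, Il5, Il9, Il10, Il13, Il17a and Il22 had no site in promoter or gene body.

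The 10 lymphoid ligands without a promoter site had their nearest site between 1302 bp and 17617 bp from the start, with a median of 5120 bp. The nearest ones lay upstream of Il3 at 1302 bp, of Il13 at 1584 bp, of Il2 at 1950 bp and of Il10 at 2432 bp. With a window of 2 kb the count of lymphoid ligands with a promoter site was 6 of 13, while that of stromal ligands stayed at 5 of 6. The order of both groups was kept, but the gap was smaller in this window.

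At promoters the myeloid ligands, with 4 of 7 (57.1%, 25% to 84.2%), stood between the stromal and the lymphoid ligands. Their median share of the gene body covered, 15.7%, was above both, with 10.6% for stromal and 0% for lymphoid ligands, and so was the median of 12.6% of the bases covered in the 50 kb to either side. Il18, which is kept as a precursor in many cells, had 3 promoter sites. Of these, the site of 850 bp over the start and the site of 236 bp upstream of it also lay within 1 kb of a start of Bco2. Il1a had a site of 451 bp over its start, and Il1b, its neighbour on chromosome 2 and the main secreted form of IL-1, had none in promoter or body, with the nearest site 20692 bp upstream. Il12a and Il12b, which encode both chains of IL-12, had no site within 1 kb of their first start, although a site of 1847 bp covered 23.4% of the Il12a gene and 4 sites covered 19.1% of Il12b. In Il23a a site of 461 bp began 445 bp downstream of the start, and in Il27 a site of 930 bp began 802 bp downstream. Among the others, Il1rn had a site of 2053 bp from -1692 to 360, Il17d, the ligand with the widest island, 1209 bp, had a site of 218 bp from 27 bp downstream, and Il17b had 334 bp over its start. Among the epithelial ligands, the site of Il24, over its start, was 236 bp wide, and a site of 1165 bp reached into Il17c from 1299 bp downstream of its start. Il19, Il20, Il25, Il1f5, Il1f6, Il1f8, Il1f9 and Il1f10 had no site in promoter or body.

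Receptors were grouped by cells known to carry them, and the fibroblast class holds receptors of fibroblasts and of many other cells. Receptors of this class carried most of the marked bases of the family. Their sum includes 17960 bp in Il11ra1, where most sites lay near starts of other coding genes. The bodies of these 13 genes held 110 sites over 123399 bp, or 18.1% of their summed length, against 8.01% for the 12 lymphoid receptors and 2.53% for the 4 myeloid receptors. The median share of the gene body covered was 24.7% in the fibroblast class and 5.92% in the lymphoid class, beside 6.47% for all protein-coding genes. A promoter site was present at 10 of 13 fibroblast receptors (76.9%, 49.7 to 91.8%) and at 6 of 12 lymphoid receptors (50.0%, 25.4 to 74.6%), with overlapping intervals. The share was 63.9% of all protein-coding genes, 93.0% of those with an island and 29.9% of those without. Islands were present at 7 of 13 and 2 of 12 of these genes, and all of these had a promoter site. Without an island, Il15ra, Il17rc and Il1r1 of the fibroblast class had a promoter site, and Il11ra1, Il13ra2 and Il1rl1 had none. In the lymphoid class Il18rap, Il21r, Il2rg and Il7r had one without an island, and the others had none.

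The signal-passing chain of the IL-1 receptor, Il1r1, had 18 sites over 22739 bp of its 92178 bp, the most bases of any member. A site of 1436 bp ran from -1106 to 329 over its start and the widest, 3587 bp, lay from 6869 to 10455. Between 40937 and 60351 bp from the start, 9 sites of 382 to 3319 bp followed each other. Its partner chain Il1rap had a site of 2287 bp over the start and 12 sites over 4.49% of a gene of 148414 bp. Il17rd, Il6ra and Il17ra had 15, 15 and 9 sites over 27.7%, 31.1% and 38.5% of their bodies.

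Il4ra, the chain shared by the receptors for IL-4 and IL-13, had the highest covered share of all members. A site of 4398 bp from -1513 to 2884 filled the whole promoter window, and 6 sites covered 12123 bp or 44.3% of the gene, a share exceeded by 7.94% of protein-coding genes. Il17rc, a chain of the IL-17 receptor, followed with 42.7%, but its site of 3602 bp at the 3' end also lay within 1 kb of a start of Creld1. Its other site, 1888 bp, lay over its own start. Il10rb, Il13ra1 and Il15ra each had a site over the start, of 1682 bp, 1027 bp and 2632 bp. Il13ra2, the decoy receptor of IL-13, differed from Il13ra1 and had no site in promoter or body, its nearest lying 5567 bp upstream.

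**Figure D4:**
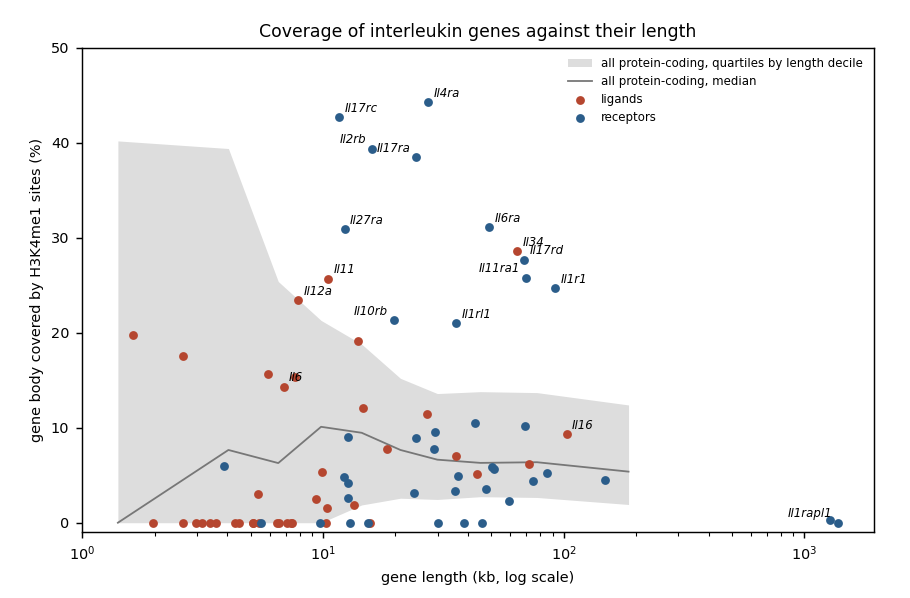
Share of each gene body covered by H3K4me1 sites (%) against gene length (kb, log scale) for ligands (red) and receptors (blue), with the median (grey line) and the quartiles (grey area) of all protein-coding genes in 10 classes of length. Il4ra (44.3%), Il17rc (42.7%), Il2rb (39.4%), Il17ra (38.5%) and Il34 (28.6%) lie above the upper quartile of genes of their length, and many ligands lie at 0.

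Il1rl1 and Il11ra1 showed sites at later starts only. In Il1rl1, which has an upstream start known from mast cells and a downstream start known from fibroblasts, the first start had no site within 1 kb, and the nearest began 4153 bp downstream. All 4 later starts, at 7019, 10057, 10206 and 11058 bp, lay under sites of 1386, 652, 652 and 277 bp. In all, 13 sites covered 21.0% of Il1rl1, the last ending 20127 bp from the first start. Il11ra1 had 17960 bp under sites, but 7 of its 11 sites lay within 1 kb of a start of another coding gene inside the span of its longest transcript, Dctn3 and Galt among them. The site of 4030 bp from 59287 to 63316 covered 6 of the later Il11ra1 starts and lay near no other coding gene.

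Across the family, 8 members had a site at a later start and none at the most upstream start, 2 of them ligands and 6 receptors. In 6 of the 8, Il11, Il11ra1, Il1r2, Il1rl1, Il2rb and Il31ra, a start with a site belonged to a coding transcript, and in Il12a and Il20rb it did not. Counted with any start, 45 of 79 members had a promoter site (57.0%, 46.0 to 67.3%), against 67.8% of all protein-coding genes. The receptors then came to 27 of 40 (67.5%, 52.0 to 79.9%), at the level of all genes, and the ligands to 18 of 39 (46.2%, 31.6 to 61.4%).

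A gene body site was present in 10 of 12 lymphoid receptors (83.3%, 55.2 to 95.3%) and in 4 of 13 lymphoid ligands (30.8%, 12.7 to 57.6%). The share of all protein-coding genes, 72.8%, lay inside the interval of these receptors. The receptor genes were longer, with a median of 27266 bp beside 5130 bp for the ligands and 17425 bp for all protein-coding genes. Il2rg, the common gamma chain, had a site of 746 bp over its start, which also lies close to a start of Gm20489, and Il7r had 1425 bp. Il12rb2 and Il27ra, both with islands, had sites of 461 bp and 507 bp over the start. Il18rap and Il21r had sites of 644 bp and 290 bp that ended 217 bp and 63 bp before the start. Il2rb, which pairs with the common gamma chain in the receptors for IL-2 and IL-15, had no site at its first start, but 5 sites over 39.4% of the gene and a site of 1931 bp over its later start, 1515 bp downstream. Il23r had 13 sites over 7000 bp, of which the nearest to the start lay 8384 bp inside. Il2ra, Il9r and Il18r1 had sites in the body alone, over 5.90%, 9.06% and 3.36%. Il12rb1 had none, and its nearest site was 39376 bp away.

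Among the remaining receptors, Il3ra had an island of 1023 bp and a site of 255 bp that ended 206 bp before the start, while Il5ra and Il10ra had no site. Il1r2, the decoy receptor of IL-1, had sites at later starts and its first start was 8729 bp from the nearest. Il17rb, Il20ra and Il1rl2 had sites of 866 bp, 1333 bp and 798 bp over their starts, of which that of Il17rb is close to a start of Chdh. Il22ra1, Il22ra2, Il20rb and Il31ra had no site at the first start and 3.11%, 4.15%, 9.54% and 4.40% of the body covered. The X-linked Il1rapl1 and Il1rapl2, which encode synaptic proteins, were the longest members with 1374776 bp and 1276339 bp. Il1rapl1 held a single site of 214 bp, or 0.0156% of its length, and Il1rapl2 held 8 sites over 0.284%. The 948 protein-coding genes of the X chromosome had a median of 0% of the body covered and an upper quartile of 3.98%, so low values are common on this chromosome.

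Members that neighbour each other within 100 kb formed 12 loci. The IL-1 receptor cluster on chromosome 1 (chr1:40074079-40551705), with Il1r2, Il1r1, Il1rl2, Il1rl1, Il18r1 and Il18rap on the plus strand, spanned 478 kb and held 71 sites over 14.0% of its bases. Its genes nonetheless differed, since a site lay at the first start of Il1r1, Il1rl2 and Il18rap and not of Il1r2, Il1rl1 and Il18r1. The IL-1 family cluster on chromosome 2 (chr2:24153161-24351494), with Il1f8, Il1f9, Il1f6, Il1f5, Il1f10 and Il1rn, spanned 198 kb, and 8 sites covered 3.05%. A stretch of 112 kb that holds Il1f9, Il1f6, Il1f5 and Il1f10 was free of sites, and Il1rn had the promoter site of this cluster.

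Ligand loci differed among themselves. The locus of Il4, Il13 and Il5 (chr11:53602982-53725106), the cytokines of type 2 immunity, held 6 sites over 2.55% of 122 kb, and no promoter had a site. The locus of Il2 and Il21 (chr3:37120523-37232636) had no promoter site either, but held 15 sites over 11.2% of 112 kb. The locus of Il24, Il20, Il19 and Il10 (chr1:130882074-131024974) had 8 sites over 3.08% of 143 kb, with the promoter site at Il24. The locus of Il17a and Il17f (chr1:20730905-20790617), cytokines of the Th17 type of T cell, held 5 sites over 3.50% of 59.7 kb, with the promoter site at Il17f. By comparison, Il4ra and Il21r (chr7:125552120-125633570) shared a locus with 18.2% of 81.5 kb covered, and Il17re and Il17rc (chr6:113458484-113483140) one with 24.3% of 24.7 kb. Il17re, the receptor chain for IL-17C, had no promoter site and 4.77% of its body covered. Of the 5989 bp covered in this locus, most lay under the site of 3602 bp that is within 1 kb of a start of Creld1 and overlaps an island, so they cannot be assigned to Il17rc.

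**Figure D5:**
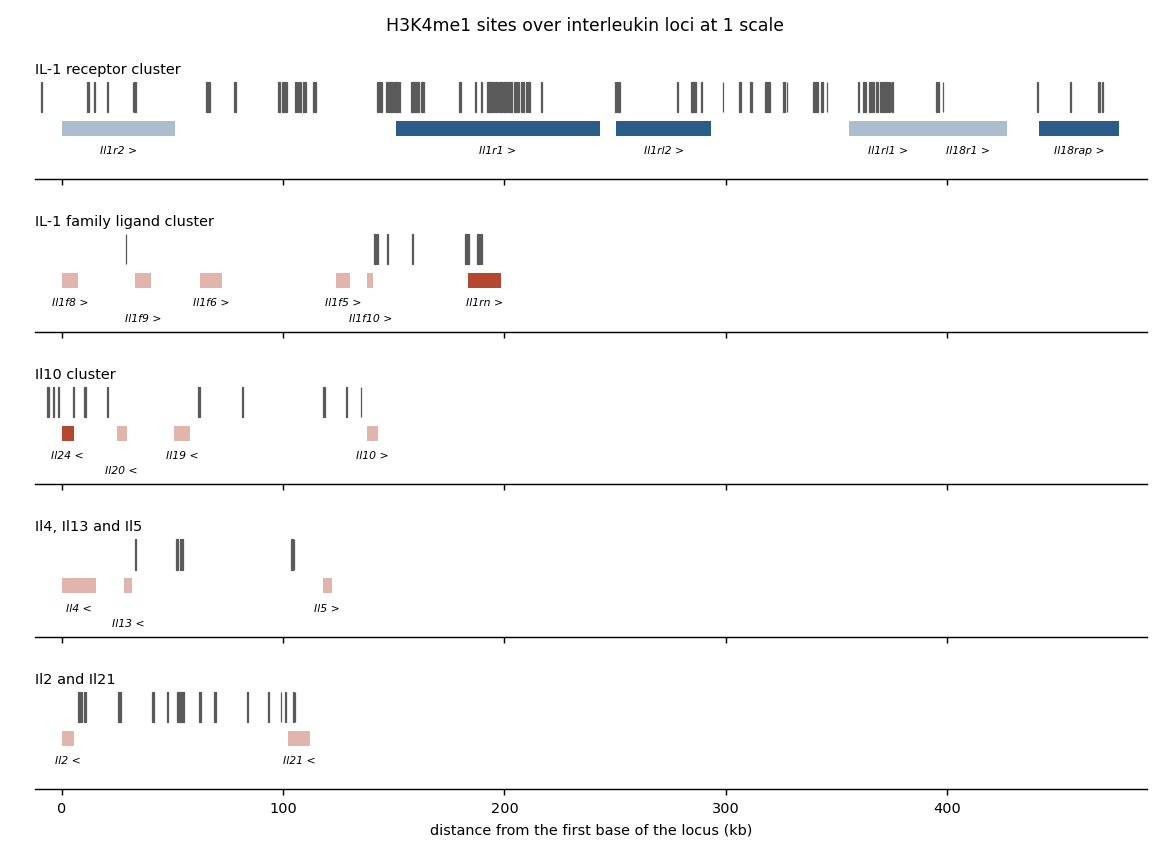
H3K4me1 sites (grey bars, drawn with a minimum line width) over 5 interleukin loci, all to 1 scale in kb from the first base of the locus, with ligand genes in red and receptor genes in blue, in full colour where the most upstream start has a site within 1 kb and pale where it does not. The IL-1 receptor cluster holds 71 sites in 478 kb, the IL-1 family cluster 8 in 198 kb, and the locus of Il4, Il13 and Il5 6 in 122 kb.

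The listed genes that work with the interleukin receptors were 24 signalling genes inside the cell, 7 receptor chains without an interleukin symbol and the soluble inhibitor Il18bp. A promoter site was present at 23 of the 24 signalling genes (95.8%, 79.8 to 99.3%), of which 20 had an island, beside 93.0% of all protein-coding genes with an island. It was present at 5 of the 7 receptor chains (71.4%, 35.9 to 91.8%), of which 4 had an island, beside 52.5% of the 40 interleukin receptors with overlapping intervals. All 4 Janus kinases, Jak1, Jak2, Jak3 and Tyk2, had a promoter site, as did Stat3, Stat5a and Stat6. The feedback inhibitors Socs1 and Socs3 lay almost entirely under sites, with 100% and 89.1% of the gene covered by sites of up to 7711 bp and 7469 bp. The widest site of the signalling genes, 10311 bp, reached into Stat6, the factor that acts after IL-4 and IL-13. All sites together covered 4074 bp of the Stat6 promoter and body, so most of this wide site lay outside them. Il6st, the shared receptor chain of the IL-6 family, and Osmr and Lifr also had promoter sites. Of the 32 listed genes, those without a promoter site were 4, Stat4, Csf2rb, Csf2rb2 and Il18bp. Stat4 is the factor of the IL-12 receptor and Csf2rb the shared chain of the receptors for IL-3 and IL-5. Csf2rb2 is a chain of the IL-3 receptor and Il18bp the soluble inhibitor of IL-18. In this order, the nearest sites of these 4 genes were 9503, 5009, 4424 and 7198 bp away. Csf2rb and Csf2rb2 are close copies, and how reads that match both were placed is not given in the sources used here.

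The words searched in the printed promoters were counted in all RefSeq promoters, from 250 bp before to 50 bp after the start. Of the members, 62 had an entry, with 77 starts in all, and Il7, Il15 and Il34 had none. The AP-1 word was found in 14 of 77 member promoters (18.2%) and in 7.81% of all 32851 promoters, the NF-kB word in 7 (9.09%) and in 1.25%, the C/EBP word in 14 (18.2%) and in 10.8%, and the STAT word in 10 (13.0%) and in 8.30%. The AP-1 word was in 7 of 33 member promoters with a site within 1 kb (21.2%) and in 7 of 44 without one (15.9%). The NF-kB word was in 4 of 33 and in 3 of 44. Islands are less frequent at members than at all protein-coding genes, and the words were not counted apart by island. Starts of the same gene can overlap, and a match is no evidence of binding.

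The TATA word was more frequent in ligand promoters, whereas islands were more frequent at receptors. TATAAA was found in 10 of 38 ligand promoters (26.3%) and in 1 of 39 receptor promoters (2.56%), beside 8.32% of all promoters. Between 40 and 20 bp before the start it was found at 7 ligand promoters (18.4%), those of Il13, Il17a, Il17f, Il1a, Il1b, Il2 and Il33, and at that of the receptor Il13ra2, beside 1.91% of all promoters. Anywhere in the promoter, 3 of the 33 member promoters with a site within 1 kb and 8 of the 44 without one held TATAAA.

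In the 200 bp at the centre of sites, the AP-1 word was present at 45 of 271 sites at members (16.6%) and at 12.7% of all sites. Away from the starts of coding genes it was present at 37 of 187 sites at members (19.8%) and at 13.9% of all such sites. The C/EBP word was present at 14 of these 187 (7.49%) beside 8.10%, the STAT word at 14 (7.49%) beside 6.40%, and the NF-kB word at 3 (1.60%) beside 0.939%.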

How the data were processed

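H3K4me1 ChIP-seq was made in NG3 cells, in 12 H3K4me1 libraries of 6 conditions and 2 inputs. Per the submitters' processing notes and the methods, the authors used BWA for alignment to mm10 after trimming, SAMtools for filtering and MACS2 for broad peaks on merged replicates. Versions and thresholds are not given in the sources used here. The deposited table holds the positions of 1 pooled set of peaks in bases, with starts counted from 0. Coordinates here are counted from 1. Pooling joins conditions, and broad peak calling can merge neighbouring marks. Library depth is unknown from these positions. Columns of per-sample values left unused numbered 0. The time course, which the authors tested with DESeq2, was not analysed here.

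Sites were overlaid on GENCODE M21 with an overlap of at least 1 bp (Python 3.11.15, numpy 2.4.6, scipy 1.17.1, numba 0.67.0; figures with matplotlib 3.10.9). GENCODE M25, which the methods name, was not used here. A promoter was 1 kb to either side of the most upstream TSS. CpG islands were found on repeat-masked sequence as runs that gained 17 for each CpG and lost 1 for any other base (-1), longer than 200 bp, with a GC content of 50% or more and CpGs at over 0.6 of the number expected from C and G, which gave 16196 islands. Interval functions and the island rule were tested on simulated data. Receptors included Il17rc, Il17rd and Il17re.

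The members, the classes of ligands and receptors, the signalling and marker lists and the words searched were chosen with earlier results of these data known. Named were all stromal ligands, all ligands with a promoter site, the 5 ligands and 10 receptors with the most bases covered, the fibroblast receptors, lymphoid ligands with a site in the body, receptors with an island and no site, neighbours in the loci described, and signalling genes without a promoter site. Other genes were named, and the signalling list was divided into genes inside the cell and receptor chains, after the values were seen. No p-value was computed, because the table has no replicates and genes are not replicates. The alternatives concerned the TSS, window, overlap, site width, merging and island rule.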

Additional observations from a re-analysis of the deposited data

How the results depend on the processing

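Each of 14 shares and medians was recomputed under 73 alternatives in all, 63 planned and 10 added after seeing the data (TSSs of coding transcripts only, and gene bodies without sites near another coding gene's TSS). Of these, 50 stayed within the interval of the reported value. With any annotated TSS, the receptor promoter share rose to 67.5% and the stromal ligand share to 100%, the latter also with TSSs of coding transcripts. With a window of 2 kb, the member and ligand promoter shares were 58.2% and 59.0%, and the ligand share then exceeded the 57.5% of receptors, so the order of ligands and receptors at promoters turned. With sites of at least 500 bp alone, the member, ligand and lymphoid ligand promoter shares were 35.4%, 25.6% and 7.69%. Under this setting the ligand gene body share fell to 38.5%, and with islands of at least 500 bp the share of member promoters with an island fell to 8.86%. The remaining changes outside an interval concerned all protein-coding genes, whose intervals are narrow. The share of stromal ligands with a promoter site exceeded that of lymphoid ligands under all 7 alternatives for promoters, and receptors exceeded ligands in gene bodies under all 5. The cause of these changes was not tested beyond the construction of each alternative. No paired analysis was possible because the peaks were pooled over libraries, and for the same reason no replicate could be left out. The depth reached by each library, which is unknown here, limits what the absence of a site can say, most for narrow sites.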
